A study of Mus musculus with 9 samples.

Results

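Genes of interferon signalling and response were followed on 9 Affymetrix expression arrays of m-ICcl2, a mouse small intestinal epithelial cell line derived from fetal tissue of the strain C57BL/6. They comprise 48 genes out of 18193 genes with a probe set of their own. The 48 were chosen by name for their known roles, with earlier results of these data known. Where a gene had several probe sets, the one brightest on average was read. A level minimum of log2 4 on at least 3 arrays left 31 of the 48, or 64.6%, and 51.8% of all genes. Cells of all 3 conditions carry the SV40 large T antigen, for which the sources used here name no promoter. There were 3 arrays for each condition, labelled as biological replicates of this 1 line: unstimulated cells, cells given lipopolysaccharide (LPS, from E. coli D31m4) at 100 ng/mL for 6 h, and cells given this dose for 6 h and then kept for 90 h without it. The last condition, reached 96 h after LPS was added, is called tolerant. No culture time is given for unstimulated cells, so time in culture and earlier exposure cannot be told apart.

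Interferons are secreted proteins that put cells into an antiviral state. Type I interferons such as interferon beta bind the receptor pair IFNAR1 and IFNAR2 and act through the kinases JAK1 and TYK2, whereas interferon gamma binds IFNGR1 and IFNGR2 and acts through JAK1 and JAK2. The kinases phosphorylate STAT proteins. STAT2 enters the nucleus with IRF9 in a complex called ISGF3, which binds the interferon-stimulated response element (ISRE) in promoters of antiviral genes. Toll-like receptor 4, the receptor of LPS, can lead to interferon beta production through IRF3, and intestinal epithelial cells also respond to type III interferon through IFNLR1.

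The arrays read as epithelial in part. Of 16 epithelial markers 10 passed the level minimum, among them the keratins Krt8, Krt18 and Krt20. Krt19, Cdh1, Cldn3, Cldn7, Cdx1 and Cdx2 stayed below log2 4 on every array. Epcam passed only through the tolerant arrays, at 5.31 to 6.07 against 2.92 to 3.24 on the others. Of the 10, 6 were called higher in tolerant than in unstimulated cells (60%, against 14.0% of all genes). Hnf4a was the 1 called lower (10%, against 12.2%). The part of these changes in the results was not tested. All 7 fibroblast and all 4 endothelial markers lay below the minimum, as did 4 of 5 dendritic ones and 10 of 13 leukocyte markers (highest value 3.75, for Ptprc). The leukocyte markers that passed were Csf1r and Spi1, both below their unstimulated level in tolerant cells, and Cd68, which was above it. The 13 markers summed to 1258 to 2485 in unstimulated cells, 784 to 2138 at 6 h and 1163 to 1497 in tolerant cells on the linear intensity scale, and their part in the results below was not tested. Replicate 1 stood apart from replicates 2 and 3 in every condition. It was the highest array of its condition 3 times over for 7 of the 31 tested genes of the set and the lowest for 8, against 28.8% and 22.4% of all tested genes. The difference between the 3' and 5' probe sets of Actb, a sign of RNA integrity, was log2 0.40 to 0.72 on replicate 1 arrays and 1.02 to 1.38 on the others. The 18S rRNA 5' probe set read log2 7.27 to 10.24 on replicate 1 arrays and 3.38 to 5.76 on the others. The part of these differences in the results was not tested. Counts of calls in the comparisons are also given from a fit with replicate number as an added term, called the replicate block.

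Part of the antiviral programme stayed near the floor of the arrays in every condition. The gene of the ligand, Ifnb1, read log2 2.39 to 2.47 on the 9 arrays. Also below log2 4 on all 9 arrays were Irf7, the factor that amplifies interferon production (2.53 to 2.69), the RNA sensor genes Ifih1 (highest 2.33) and Dhx58 (2.58) and the nucleic acid sensor gene Zbp1 (2.45). The same held for the effector genes Ifit1 (2.15), Mx1 (2.56), Mx2 (2.29), Oas2 (3.34), Oasl2 (2.47) and Gbp3 (3.85), for the feedback inhibitor gene Socs1 (1.85), for Parp14 (2.96) and Dtx3l (3.89), and for the peptide transporter gene Tap2 (2.51). In all, 15 of the 48 genes were below the minimum on every array. The set as a whole was not low for these arrays: 64.6% of it passed the level minimum, against 51.8% of all genes. Just outside the minimum lay Tap1, which reached 4.99 and 4.74 on the replicate 1 arrays of unstimulated and tolerant cells and 3.55 to 3.90 on the other 7, and the guanylate-binding gene Gbp2, at 4.20 on 6 h LPS replicate 3 alone. Just inside were Usp18 with 4 arrays at or above log2 4, and Irf2 and Cmpk2 with 5 each. No tested gene of the set passed through a single condition. At such values a probe set shows only that the transcript was not well above the floor, and differences carry no order.

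**Figure D1:**
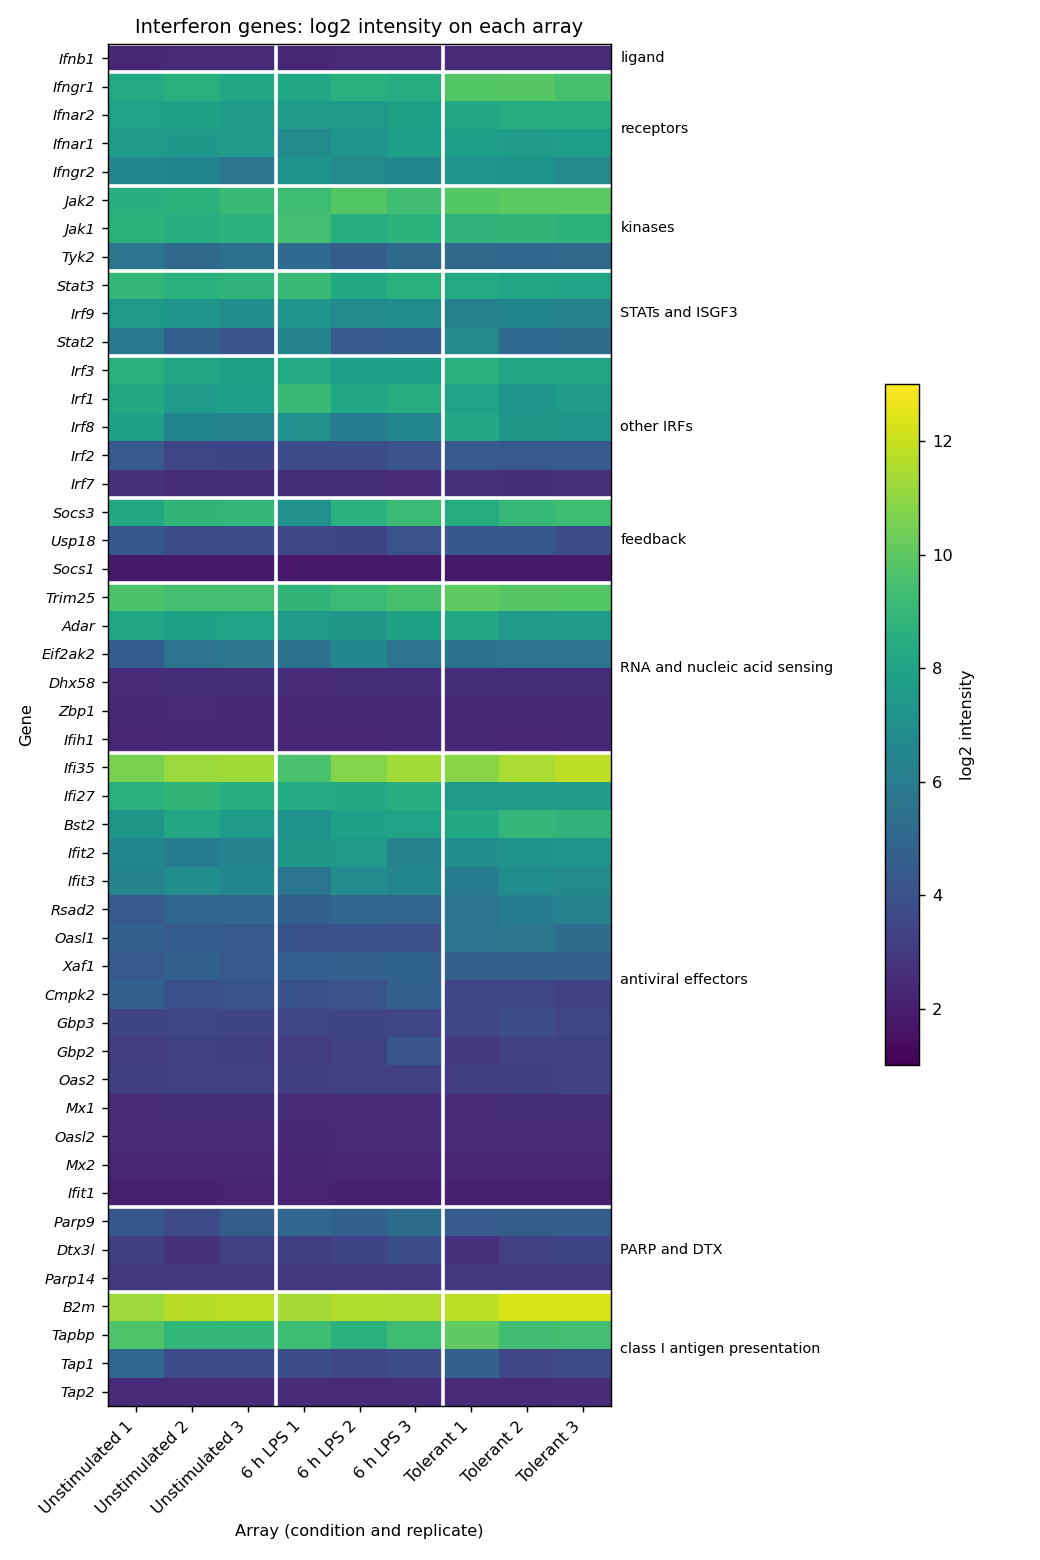
Log2 intensity of the 48 interferon genes (rows, by role) on the 9 arrays (columns, 3 per condition); colours compare arrays within a row, since probe sets differ in brightness. Ifnb1, Irf7, Ifit1, Mx1 and the other genes near the floor stay dark in all 3 conditions.

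At 6 h of LPS the question was which interferon genes responded to the acute stimulus. None of the 31 genes was called at an adjusted p under 0.05 (limma, Benjamini-Hochberg over all 9431 genes tested), where 0.0636% of all genes were called higher and 0% lower. At an unadjusted p under 0.05 there were 5 of the 31 and 2163 of the 9431. The median log2 difference was -0.11 both over the set and over all genes tested. With the replicate block 4 of the 31 were higher (12.9%, against 11.6% of all genes) and 1 was lower (3.23%, against 12.5%), so the share raised lay near the background. Those higher were Irf1, Parp9, Jak2 and Ifngr2, and Oasl1 was lower. Replicates 2 and 3 by themselves gave no call in the set, and 8 higher and 0 lower over all 9431 genes.

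In tolerant cells, compared with unstimulated ones, the genes that were higher were the receptor genes Ifngr1 and Ifnar2, the kinase gene Jak2 and the antiviral genes Rsad2, Oasl1 and Bst2, and lower were Irf9, Stat3, Ifi27 and Cmpk2. The 6 higher genes are 19.4% of the 31, against 14.0% of all genes tested, and the 4 lower ones are 12.9%, against 12.2%. The share lowered is thus near the background. The median log2 difference was 0.28 over the set and -0.07 over all genes, and 23 of 31 genes (74.2%) lay above 0, against 45.3%. With the replicate block 12 were higher (38.7%, against 22.7%) and 4 were lower (12.9%, against 25.9%), and the 10 calls were kept. The count of 10 fell to 6 without unstimulated replicate 3, without tolerant replicate 2 or without tolerant replicate 3.

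Tolerant cells were also compared with the 6 h state. This comparison shares its arrays with the others, so its values stand beside theirs and are not independent of them. Ifngr1, Ifnar2, Rsad2, Oasl1 and Trim25 were higher in tolerant cells and Ifi27 was lower. The 5 higher genes are 16.1% of the 31, against 7.10% of all genes, and the 1 lower is 3.23%, against 6.02%. With each array centred on its median the split was 5 higher and 4 lower, and after a further quantile normalization it was 4 and 3. No share of all genes under these scalings is given here, so the changed split is not read as a result about the set. With the replicate block 11 were higher (35.5%, against 16.0%) and 6 lower (19.4%, against 15.7%). The median log2 difference was 0.44 over the set and 0.01 over all genes. The count of 6 dropped to 3 without tolerant replicate 2 or without tolerant replicate 3.

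**Figure D2:**
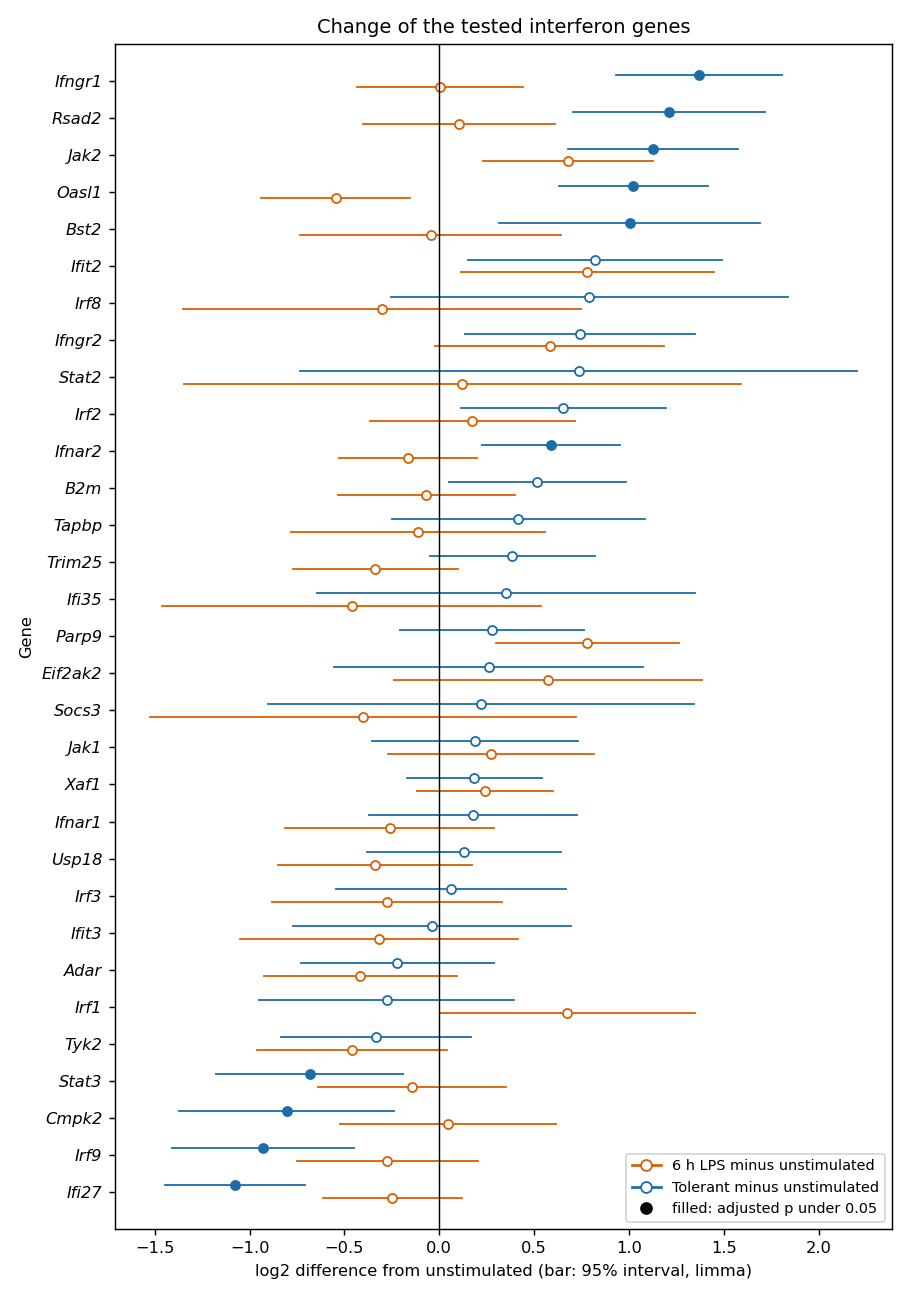
Log2 difference from unstimulated cells (horizontal axis) for the 31 tested genes, at 6 h of LPS (orange) and in tolerant cells (blue); bars are 95% intervals from limma without adjustment for the number of genes, and filled points have an adjusted p under 0.05. Ifngr1 has the highest tolerant value, 1.37, and Ifi27 the lowest, -1.08; no 6 h point is filled.

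Among the receptor genes Ifngr1, which encodes the ligand-binding chain of the interferon gamma receptor, changed most. It read 8.31, 8.61 and 8.21 in unstimulated cells, 8.13, 8.61 and 8.41 at 6 h and 9.85, 9.88 and 9.51 in tolerant cells (log2, replicates 1 to 3). The tolerant arrays all lay above the other 6, which overlapped. It rose 2.58-fold over unstimulated cells, a log2 difference of 1.37 ± 0.19 (SE; limma adjusted p = 0.00165), and 2.57-fold over cells at 6 h (adjusted p = 0.00245). Both calls held without any 1 of the 9 arrays. Ifngr2, the gene of the signalling chain, read 6.57, 6.43 and 5.77, then 7.18, 6.72 and 6.60, then 7.20, 7.15 and 6.64. Its 6 h and tolerant arrays all lay above the unstimulated ones, and it passed with the replicate block at 6 h (log2 0.58, adjusted p = 0.0337, against 0.234 without) and in tolerant cells (log2 0.74, adjusted p = 0.00347, against 0.0709 without).

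Of the type I receptor genes, Ifnar2 read 7.90, 7.88 and 7.64 in unstimulated cells, 7.60, 7.50 and 7.82 at 6 h and 8.26, 8.43 and 8.50 in tolerant cells. Every tolerant array exceeded the other 6. It rose 1.50-fold over unstimulated cells (log2 0.59 ± 0.16, SE; adjusted p = 0.0262) and 1.69-fold over cells at 6 h (adjusted p = 0.0157). A dimmer probe set of the gene, with a mean of log2 5.04, went the other way, by -0.11 and -0.53 in these comparisons, so the rise rests on 1 of the 2 probe sets that passed the minimum. Without unstimulated replicate 2 or 3, or tolerant replicate 2 or 3, the call against unstimulated cells was lost (adjusted p = 0.0664 to 0.0996), as it was after quantile normalization (0.0579). It was also lost with the mean of the probe sets of the gene (log2 0.15, adjusted p = 0.606). The call against 6 h was lost without 6 h LPS replicate 2 or tolerant replicate 2 or 3 (adjusted p = 0.0579 to 0.0684). Ifnar1, the gene of the partner chain, read 7.61, 7.39 and 7.58, then 6.72, 7.32 and 7.75, then 7.75, 7.65 and 7.71. Its difference between tolerant and unstimulated cells was log2 0.18 with a 95% interval of -0.37 to 0.72 (adjusted p = 0.639). On the assembly GRCm38.p6 Ifnar2, Ifnar1 and Ifngr2 lie in this order on chromosome 16, all on the plus strand. Their starts are 112.4 kb and 61.8 kb apart, and of these 3 genes Ifnar2 alone was called without the block.

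Jak2, the kinase bound to the signalling chain of the interferon gamma receptor and of many cytokine receptors, rose in tolerant cells. Its values were 8.56, 8.71 and 9.10 in unstimulated cells, 9.29, 9.77 and 9.34 at 6 h and 9.83, 9.95 and 9.96 in tolerant cells. The 3 conditions did not overlap. It rose 2.18-fold in tolerant cells (log2 1.13 ± 0.20, SE; limma adjusted p = 0.00419), a call that held without any 1 of the 9 arrays. The 6 h difference of log2 0.68 passed only with the block (adjusted p = 0.0337, against 0.122 without). Its other probe set differed by 0.82 at 6 h and 1.88 in tolerant cells (log2). Jak1 read 8.70, 8.47 and 8.64, then 9.45, 8.48 and 8.70, then 8.81, 8.86 and 8.70. Tyk2, the kinase of the type I receptor, read 5.72, 5.15 and 5.43, then 5.22, 4.56 and 5.15, then 5.14, 5.005 and 5.15. Neither passed in a comparison, with tolerant minus unstimulated intervals of -0.36 to 0.73 for Jak1 and -0.83 to 0.17 for Tyk2 (log2, 95%).

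**Figure D3:**
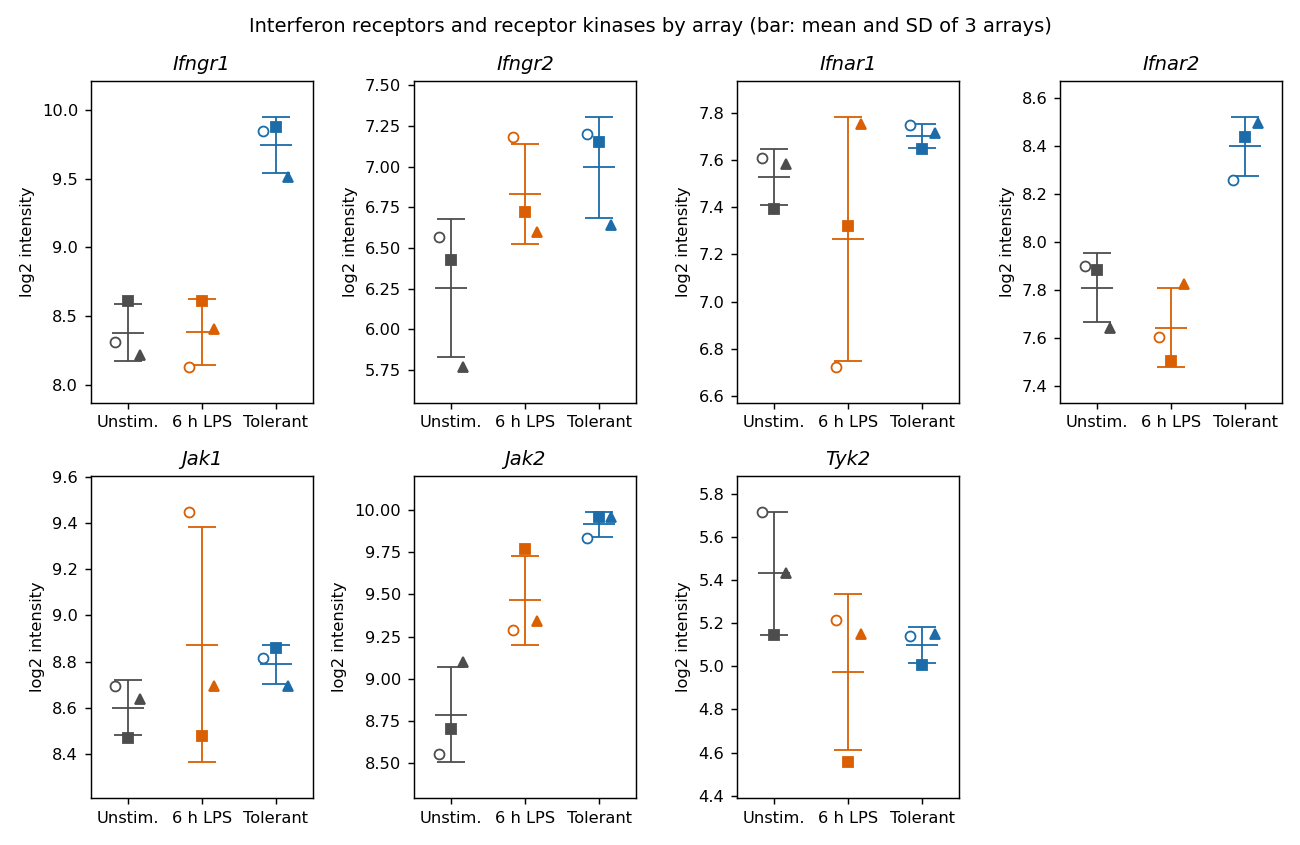
Log2 intensity of the 4 receptor and 3 kinase genes by condition; points are arrays (open circle replicate 1, square 2, triangle 3), bars the mean and SD of 3 arrays, and each panel has its own vertical scale. The tolerant arrays of Ifngr1, between 9.51 and 9.88, lie above all the others, whereas those of Jak1 and Tyk2 lie within the range of the other conditions.

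Of the ISGF3 genes measured, Irf9 fell in tolerant cells, and the call on Stat2 depended on how replicate 1 was treated. Irf9, the DNA-binding subunit, read 7.55, 7.25 and 6.89 in unstimulated cells, 7.27, 6.75 and 6.84 at 6 h and 6.25, 6.40 and 6.26 in tolerant cells. The tolerant values were the lowest of the 9. It fell 1.90-fold below unstimulated cells (log2 -0.93 ± 0.21, SE; limma adjusted p = 0.0126), also without any 1 of the 9 arrays, and the difference from 6 h passed with the block (log2 -0.65, adjusted p = 0.0188, against 0.0776 without). Stat2 read 6.01, 4.74 and 4.17, then 6.34, 4.44 and 4.50, then 6.64, 5.19 and 5.29, with replicate 1 on top in each condition. Its tolerant value was higher by log2 0.73 on average, which did not pass over the 9 arrays without the block (adjusted p = 0.443) but passed with it (0.0094) and on replicates 2 and 3 alone (0.0267). Stat3, which serves interleukin 6 type cytokines and feeds back on interferon responses, read 8.95, 8.67 and 8.79, then 9.07, 8.28 and 8.63, then 8.33, 8.04 and 7.99. It fell 1.61-fold in tolerant cells (log2 -0.68 ± 0.22, SE; adjusted p = 0.0476). That call was lost without any of the 3 unstimulated arrays, without 6 h LPS replicate 3, or without tolerant replicate 2 or 3 (adjusted p = 0.0628 to 0.147). The mean of its probe sets, the most variable probe set and no level filter also ended it. In all the Stat3 call was lost in 10 of 22 alternatives, with an adjusted p of up to 0.806. The other bright probe set of the gene differed by -0.22 (log2).

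Irf1, an activator that interferon gamma and NF-kappa-B both induce, read 8.30, 7.64 and 7.76 in unstimulated cells, 9.13, 8.15 and 8.45 at 6 h and 7.95, 7.29 and 7.63 in tolerant cells. The 6 h array was the highest of each replicate number. With the block it rose 1.60-fold at 6 h (log2 0.67, adjusted p = 0.0319, against 0.217 without) and was 1.94-fold lower in tolerant cells than at 6 h (log2 -0.95, adjusted p = 0.00124, against 0.0698 without). Irf8, best known from myeloid cells, where it directs their differentiation, read 7.88, 6.42 and 6.22, then 7.02, 6.11 and 6.48, then 8.25, 7.37 and 7.26. Its tolerant minus unstimulated difference of log2 0.79 did not pass over the 9 arrays without the block (adjusted p = 0.244). It passed with the block (0.0128), on replicates 2 and 3 alone (log2 1.00, adjusted p = 0.00737) and without unstimulated replicate 1 (log2 1.31, adjusted p = 0.039). Of the 3 leukocyte markers that passed the minimum, Cd68 rose with it, 17.8-fold over unstimulated cells (mean log2 5.52 to 9.67), whereas Spi1 was lower by at least 1.94-fold and Csf1r by 3.85-fold, and their part in the Irf8 result was not tested. Irf2, an antagonist of Irf1 that lies near the level minimum, was log2 0.65 higher in tolerant cells and passed with the block (adjusted p = 0.0345, against 0.0743 without). Irf3, the constitutive factor upstream of interferon beta, had means of 8.21 ± 0.40, 7.94 ± 0.36 and 8.27 ± 0.29 (SD, n = 3) and passed in no comparison.

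Neither measured feedback gene passed in a comparison. Usp18, which encodes a protease that restrains type I interferon receptor signalling, read 4.30, 3.86 and 3.88 in unstimulated cells, 3.57, 3.40 and 4.06 at 6 h and 4.27, 4.28 and 3.88 in tolerant cells, around the level minimum. Socs3, an inhibitor of cytokine receptor signalling, read 8.28, 8.84 and 8.96, then 7.05, 8.65 and 9.17, then 8.44, 9.03 and 9.28. Replicate 1 was the lowest in each condition, and the tolerant minus unstimulated interval ran from -0.90 to 1.34 (log2, 95%).

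Among the antiviral effectors Rsad2, which encodes viperin, an enzyme that makes a chain-terminating nucleotide, rose in tolerant cells. It read 4.37, 4.97 and 4.97 in unstimulated cells, 4.72, 4.97 and 4.92 at 6 h and 5.64, 6.08 and 6.22 in tolerant cells, with no overlap between tolerant arrays and the others. The rise was 2.31-fold over unstimulated cells (log2 1.21 ± 0.22, SE; limma adjusted p = 0.00538), held without any 1 of the 9 arrays, and was 2.15-fold over 6 h (adjusted p = 0.0129, or 0.0546 and 0.0565 without tolerant replicate 3 or 2). Its other probe sets read below log2 4 on all 6 arrays of the other conditions. Their tolerant minus unstimulated differences, log2 0.75 and 1.01, had the same direction but rest on values around or below the minimum. Oasl1, which encodes an inactive relative of the oligoadenylate synthetases that in mice restrains Irf7 translation, read 4.72, 4.49 and 4.39, then 4.01, 4.03 and 3.92, then 5.66, 5.74 and 5.28. The 3 conditions did not overlap, with 6 h lowest and tolerant highest. Oasl1 rose 2.03-fold over unstimulated cells (log2 1.02 ± 0.17, SE; adjusted p = 0.00359) and 2.97-fold over 6 h (adjusted p = 0.00069), both also without any 1 of the 9 arrays. With the block it was lower at 6 h than in unstimulated cells (log2 -0.55, adjusted p = 0.0337, against 0.131 without).

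Bst2, the gene of tetherin, which holds budding virus at the cell surface, read 7.35, 8.18 and 7.53 in unstimulated cells, 7.12, 7.87 and 7.93 at 6 h and 8.30, 8.96 and 8.81 in tolerant cells. Its tolerant arrays exceeded the other 6. It rose 2.01-fold over unstimulated cells (log2 1.00 ± 0.30, SE; limma adjusted p = 0.0391), and 2.07-fold over 6 h with the block (adjusted p = 0.00203, against 0.0541 without). The first call was lost without unstimulated replicate 1 or 3 or tolerant replicate 2 or 3 (adjusted p = 0.104 to 0.136), and under both further scalings (0.058 and 0.0809). In all it was lost in 9 of 22 alternatives. Ifi27, which encodes a mitochondrial membrane protein named for its induction by interferon alpha, fell. It read 8.61, 8.87 and 8.46, then 8.37, 8.28 and 8.56, then 7.47, 7.64 and 7.60, so that every tolerant array was below the other 6. The fall was 2.11-fold from unstimulated cells (log2 -1.08 ± 0.16, SE; adjusted p = 0.00224) and 1.78-fold from 6 h (adjusted p = 0.0113), both also without any 1 of the 9 arrays.

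Cmpk2, a mitochondrial nucleotide kinase gene, read 4.66, 3.91 and 4.10 in unstimulated cells, 4.01, 4.08 and 4.71 at 6 h and 3.50, 3.50 and 3.26 in tolerant cells. All tolerant arrays were below log2 4, so it fell at least 1.17-fold from unstimulated cells (limma adjusted p = 0.0437). That call was lost without any of the 3 unstimulated or 3 tolerant arrays or without 6 h LPS replicate 2 (adjusted p = 0.0509 to 0.137), and with values below log2 4 set to it (0.473). In all it was lost in 12 of the 20 alternatives that tested the gene. Cmpk2 and Rsad2 are neighbours on chromosome 12, on opposite strands with starts 12.8 kb apart (GRCm38.p6), and were called in opposite directions.

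The other tested effectors did not pass over the 9 arrays without the block. Ifit2, which binds viral RNA and is placed beside Ifit3 and Ifit1 on chromosome 19, read 6.51, 6.04 and 6.32 in unstimulated cells, 7.34, 7.49 and 6.37 at 6 h and 6.86, 7.18 and 7.30 in tolerant cells. The 6 h mean rested on replicates 1 and 2: without 6 h LPS replicate 3 the difference was log2 1.13 (adjusted p = 0.0307, against 0.166 with it). In tolerant cells it was log2 0.82 higher and passed with the block (adjusted p = 0.0424, against 0.0703 without), without 6 h LPS replicate 3 (0.0158) and with the 6 compared arrays fitted alone (0.0205). Its neighbour Ifit3 had means of 6.60 ± 0.25, 6.28 ± 0.59 and 6.56 ± 0.42 (SD, n = 3), and Ifit1 lay near the floor. Whether the 3 genes of this cluster differ in their pattern was not tested. Ifi35 and Xaf1 passed in no comparison without the block, and Ifi35 was higher in tolerant cells than at 6 h with it (log2 0.81, adjusted p = 0.0157).

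**Figure D4:**
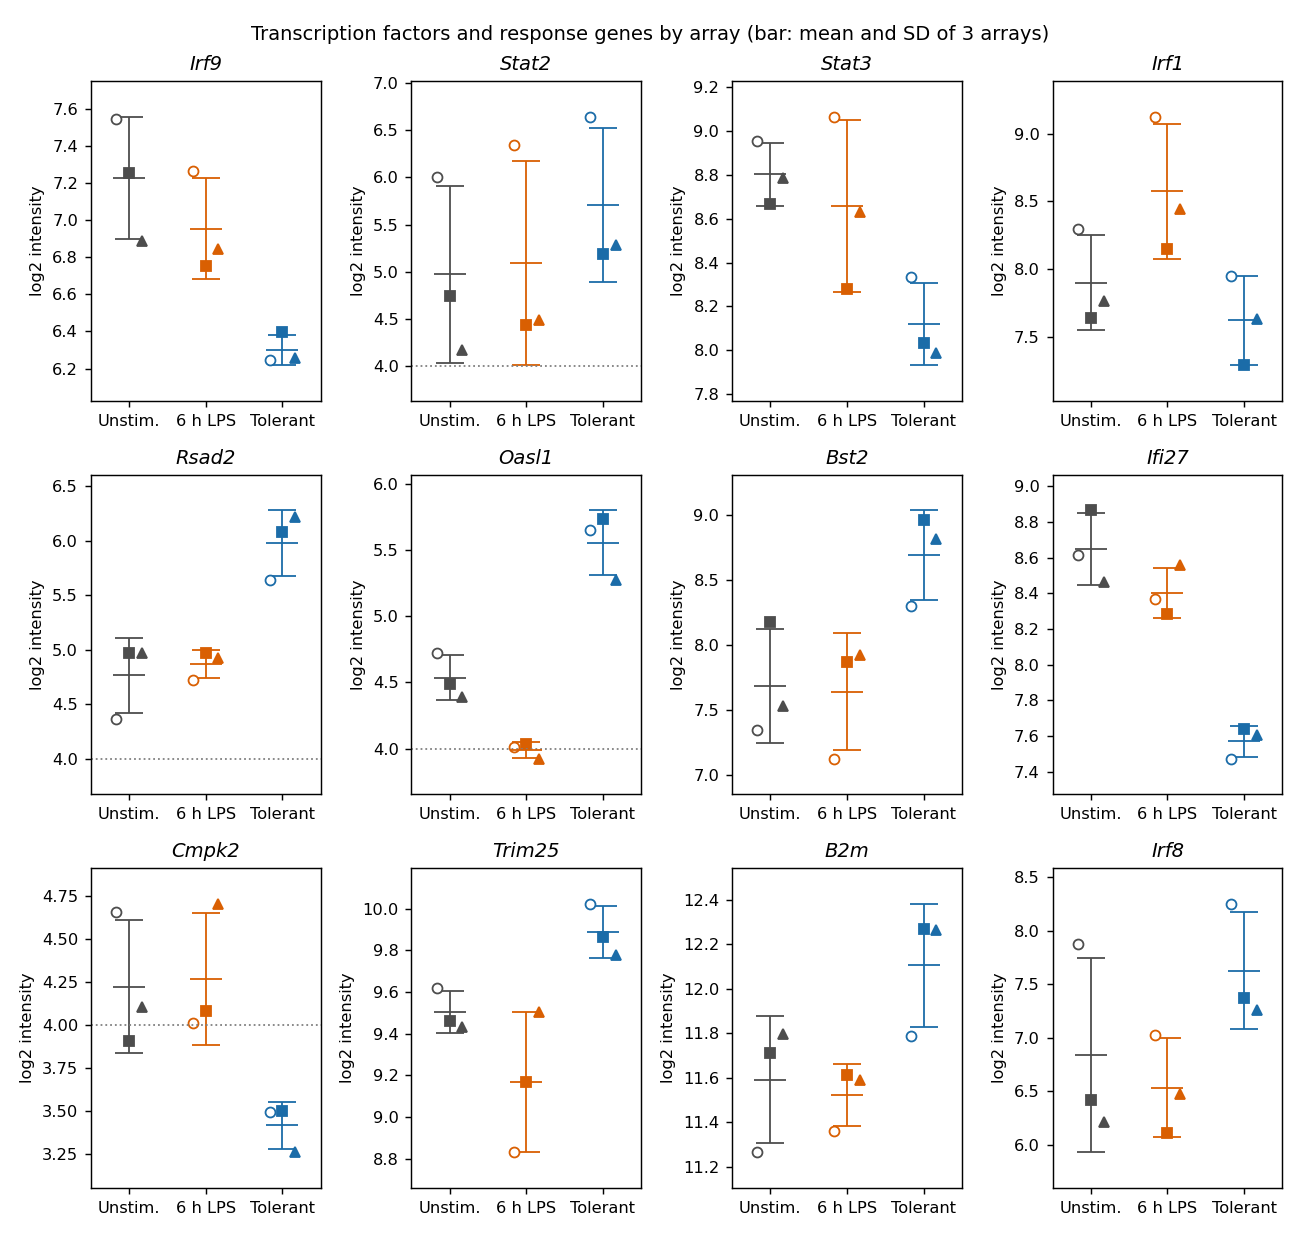
Log2 intensity of 12 transcription factor, effector and antigen presentation genes by condition, drawn as for the receptors (open circle replicate 1, square 2, triangle 3; bars mean and SD of 3 arrays); a dotted line marks the level minimum of log2 4 where it is in range. Tolerant arrays of Rsad2, Oasl1 and Bst2 lie above, and those of Irf9, Ifi27 and Cmpk2 below, all arrays of the other conditions.

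Promoters of 6 genes are shown because they pair the 2 patterns above, a rise in tolerant cells and a level at the floor or without a call, with presence and absence of the ISRE core, taken as GAAA and GAAA with any 2 bases between. The windows run from 250 bases before to 50 after the annotated start in RefSeq, GRCm38.p6, 5′ to 3′ on the strand of the gene, and capitals mark matches to this core on either strand, overlapping ones included. They are chr12:26456403-26456702 (minus strand), chr8:71537423-71537722 (minus), chr19:34640639-34640938 (plus), chr19:34583279-34583578 (plus), chr5:114922990-114923289 (plus) and chr10:19591699-19591998 (plus), in the order of the lines below.
Rsad2: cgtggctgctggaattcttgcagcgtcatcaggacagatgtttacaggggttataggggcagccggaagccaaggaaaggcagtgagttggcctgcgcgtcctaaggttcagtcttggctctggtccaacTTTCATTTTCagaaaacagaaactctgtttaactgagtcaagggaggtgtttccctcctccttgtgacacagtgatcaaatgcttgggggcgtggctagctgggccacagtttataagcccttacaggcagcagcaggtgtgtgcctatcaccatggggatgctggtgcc
Bst2: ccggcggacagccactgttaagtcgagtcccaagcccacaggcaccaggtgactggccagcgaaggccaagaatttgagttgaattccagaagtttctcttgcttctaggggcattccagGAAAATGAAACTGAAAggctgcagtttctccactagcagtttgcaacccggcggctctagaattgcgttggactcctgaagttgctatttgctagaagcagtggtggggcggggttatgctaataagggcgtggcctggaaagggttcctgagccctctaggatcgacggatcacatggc
Ifit1: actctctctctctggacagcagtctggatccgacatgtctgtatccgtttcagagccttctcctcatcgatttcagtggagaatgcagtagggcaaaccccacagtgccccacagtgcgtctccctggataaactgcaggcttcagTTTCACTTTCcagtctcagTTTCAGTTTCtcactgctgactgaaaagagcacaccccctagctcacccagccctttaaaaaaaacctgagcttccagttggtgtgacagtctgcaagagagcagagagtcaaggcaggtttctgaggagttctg
Ifit3: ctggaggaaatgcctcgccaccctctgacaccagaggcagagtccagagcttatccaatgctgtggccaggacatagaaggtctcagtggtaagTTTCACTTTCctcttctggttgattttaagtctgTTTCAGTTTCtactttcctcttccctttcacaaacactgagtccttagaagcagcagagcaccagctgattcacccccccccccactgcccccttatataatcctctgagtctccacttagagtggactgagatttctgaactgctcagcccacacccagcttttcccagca
Oasl1: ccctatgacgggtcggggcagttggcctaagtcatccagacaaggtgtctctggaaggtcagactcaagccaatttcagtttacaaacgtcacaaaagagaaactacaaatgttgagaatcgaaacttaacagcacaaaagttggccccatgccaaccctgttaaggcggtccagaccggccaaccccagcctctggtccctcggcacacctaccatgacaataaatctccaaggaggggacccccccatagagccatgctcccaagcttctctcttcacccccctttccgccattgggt
Ifngr1: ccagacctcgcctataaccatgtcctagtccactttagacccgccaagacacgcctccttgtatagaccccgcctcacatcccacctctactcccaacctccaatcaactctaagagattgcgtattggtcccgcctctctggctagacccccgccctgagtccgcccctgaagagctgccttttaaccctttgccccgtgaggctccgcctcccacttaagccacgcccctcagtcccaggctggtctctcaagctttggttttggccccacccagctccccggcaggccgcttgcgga

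Of the 48 genes, 38 had a promoter window, and 12 of these (31.6%) held the ISRE core, against 3.99% of 27025 genes. Rsad2 has 1 match, Bst2 2 that overlap, and Ifit1 and Ifit3 2 each, whereas the letters are absent from the windows of Oasl1 and Ifngr1. Genes are grouped here by their calls against unstimulated cells without the block. The core was found in 2 of 6 genes that rose in tolerant cells. Among 19 tested genes without a call 5 held it (B2m, Eif2ak2, Ifit3, Irf2 and Stat2). Of these, B2m, Irf2 and Stat2 were called higher with the block. Eif2ak2 was called higher with its most variable probe set or the mean of its probe sets. The core was also in 5 of 10 genes that were not tested (Gbp2, Gbp3, Ifih1, Ifit1 and Socs1). It was in none of 3 windows of genes that fell. The gamma-activated site, searched as TTCNNNGAA, which reads the same on both strands, was found in 11 of the 38 (28.9%), against 9.55% of all genes. Its 11 genes include Bst2 and Ifnar2 among those that rose, 9 tested genes without a call, Irf1, Irf8 and Socs3 among them, and none of the 10 untested ones. In Bst2 the gamma-activated site overlaps the first ISRE core match. A match describes the letters in the window and nothing about use of the site.

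**Figure D5:**
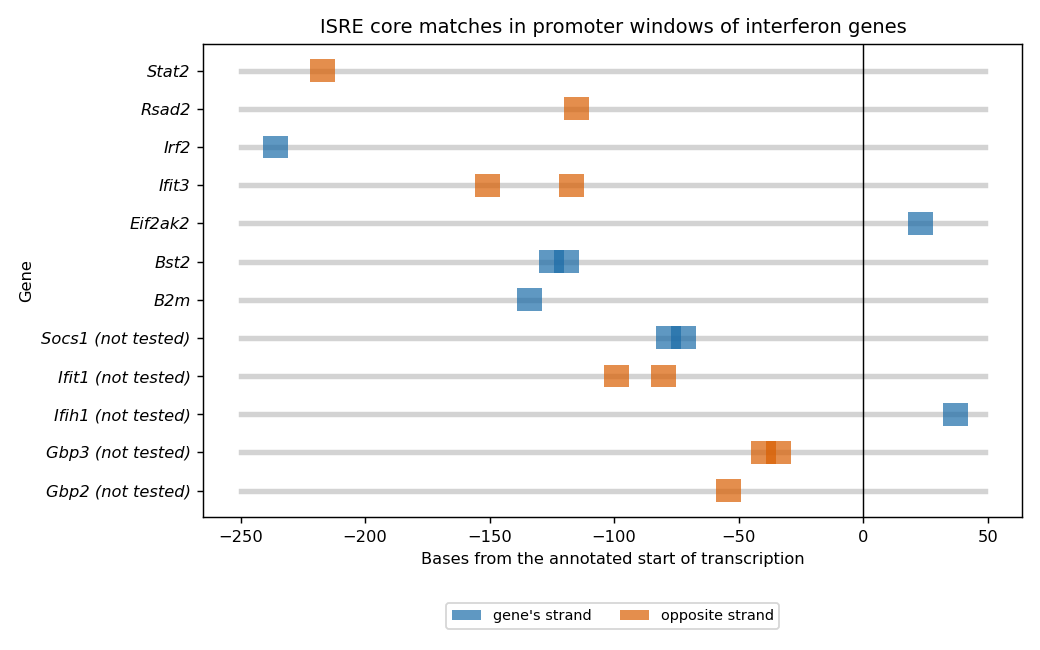
Positions of ISRE core matches (boxes, blue on the strand of the gene and orange on the opposite strand) in the promoter windows of the 12 genes that hold one, in bases from the annotated start at 0. Genes whose level was too low to be tested are marked, and Bst2, Gbp3 and Socs1 have overlapping matches.

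Of the sensing genes Trim25, a ubiquitin ligase that activates the RNA sensor RIG-I, was higher in tolerant cells than at 6 h. It read 9.62, 9.46 and 9.43 in unstimulated cells, 8.83, 9.17 and 9.50 at 6 h and 10.03, 9.87 and 9.78 in tolerant cells. The tolerant arrays were above all others. The rise was 1.65-fold over 6 h (log2 0.72 ± 0.19, SE, limma adjusted p = 0.039), a call lost in 14 of 22 alternatives. It was lost without unstimulated replicate 2 or 3, 6 h LPS replicate 1 or 2, or any tolerant array (adjusted p = 0.0611 to 0.119). Quantile normalization (0.053) and replicates 2 and 3 alone (0.0661) also ended it. So did the mean of its probe sets, the most variable probe set, the 6 compared arrays alone and no level filter. Its other probe sets were higher in tolerant cells by log2 0.58 and 0.44. Eif2ak2, the gene of the RNA-activated kinase PKR, passed in no comparison on the probe set used, with means of 5.28 ± 0.69, 5.86 ± 0.53 and 5.54 ± 0.07 (SD, n = 3). Its 3 probe sets differed in the tolerant minus unstimulated value, at log2 0.26, 1.05 and 2.08, and it was called higher with the most variable probe set (adjusted p = 0.0044) or their mean (0.0187). Adar, the RNA-editing adenosine deaminase gene, passed in none. Parp9, which with Dtx3l forms a complex that modifies histones and host proteins in the interferon response, read 4.30, 3.80 and 4.52, then 4.98, 4.74 and 5.24, then 4.42, 4.52 and 4.52, and its 6 h arrays lay above all others. It was log2 0.78 higher at 6 h with the block (adjusted p = 0.0319, against 0.117 without).

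Neither tested class I gene passed over the 9 arrays without the block. B2m, the light chain of class I molecules, read 11.26, 11.71 and 11.80 in unstimulated cells, 11.36, 11.61 and 11.59 at 6 h and 11.79, 12.27 and 12.26 in tolerant cells. Replicate 1 was the lowest in each condition, and the tolerant array was the highest of each replicate number. It was higher in tolerant than in unstimulated cells by log2 0.52 (adjusted p = 0.0984, or 0.00915 with the block) and than at 6 h by 0.58 (0.103, or 0.00811 with the block). On replicates 2 and 3 alone both differences passed (adjusted p = 0.0175 and 0.0125). Tapbp, the gene of tapasin, which loads peptides on class I molecules, had means of 9.19 ± 0.42, 9.08 ± 0.35 and 9.61 ± 0.42 (SD, n = 3) and passed only against 6 h with the block (log2 0.53, adjusted p = 0.0384).

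A wider list of 97 further pathway genes, also chosen by name with earlier results known, had 48 tested genes, 34 below the minimum and 15 not analysed here. At 6 h none was called, and 9 of the 48 had an unadjusted p under 0.05, against 2163 of all 9431. With the block 6 were higher (12.5%, against 11.6% of all genes) and 0 lower (against 12.5%). In tolerant against unstimulated cells 6 rose and 1 fell, with a median log2 difference of -0.02. These are 12.5% and 2.08% of the 48, against 14.0% and 12.2% of all genes, so the share raised was near the background. With the block 10 were higher (20.8%, against 22.7%) and 5 lower (10.4%, against 25.9%). Against 6 h 5 rose (10.4%, against 7.10%) and 0 fell (against 6.02%), with a median of -0.06. With the block 8 were higher (16.7%, against 16.0%) and 4 lower (8.33%, against 15.7%). Socs2, a feedback inhibitor of growth hormone and cytokine receptors, had mean log2 levels of 5.70, 6.85 and 8.18 in the 3 conditions and rose 5.58-fold over unstimulated cells (limma adjusted p = 0.000202). Isg20, an exonuclease gene, rose 2.70-fold (adjusted p = 0.000771), Sting1, the adaptor of DNA sensing, 2.76-fold with 2 of 3 unstimulated arrays below log2 4, Erap1, which trims peptides for class I molecules, 2.66-fold, and Socs4 2.90-fold. Cxcl10, a chemokine gene induced by interferons, was below log2 4 on all unstimulated arrays and rose at least 2.65-fold. Stat5a fell 2.12-fold (adjusted p = 0.0247). Against 6 h the higher genes were Isg20, Cxcl10, Sting1, Socs2 and Mavs, the mitochondrial adaptor of RNA sensing. The interferon genes Ifng, Ifna2 and Ifna4 and the type III receptor gene Ifnlr1 stayed at or below 2.65 on all 9 arrays (log2).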

How the data were processed

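Transcript levels were measured in 9 arrays of m-ICcl2 cells, 3 per condition, grouped by the titles in the labels. The authors deposited a linear intensity per probe set. GCRMA, named per the submitters' processing notes without a version, subtracts a modelled background and then equalizes the arrays, which leaves absent transcripts at a common floor. Log2 of the deposited intensity was taken, with no pseudocount. Of 45101 probe sets 34945 carried 1 gene symbol. R 4.3.3 with limma 3.58.1 fitted a mean per condition over all 9 arrays and 9431 genes (eBayes, two-sided, Benjamini-Hochberg within each comparison), checked on simulated data. Where all 3 arrays of the lower group were below log2 4, the fold is a lower bound against log2 4. The genes, lists, named-gene rule and tests were chosen with earlier results of these data known. The rule gave per-array values for genes called without the block and a fixed set of core genes; the promoters and the values for Irf8, Parp9, Ifngr2 and Ifit2 were chosen after values were seen. The labels do not say what a replicate number shares. Deviations from condition means correlated at 0.157 to 0.844 between same-numbered arrays, but at 0.214 to 0.731 across numbers 2 and 3 too, so the block also carries the offset of replicate 1. P-values measure the spread between these arrays, whose number limits the precision. Alternatives covered the filter, probe-set rule, scaling, floor, eBayes trend, samples fitted, block, threshold and each array left out.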

Additional observations from a re-analysis of the deposited data

How the results depend on the processing

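As reported, 0 genes of the set were called at 6 h, 10 in tolerant against unstimulated cells and 6 in tolerant cells against 6 h. With the replicate block these counts were 5, 16 and 17, and with replicate 1 against replicates 2 and 3 as a block they were 5, 16 and 16. Replicates 2 and 3 alone gave 0, 13 and 11. Calls over all 9431 genes rose as well. In tolerant against unstimulated cells the block called 22.7% of them higher and 25.9% lower, against 14.0% and 12.2% without it. Replicates 2 and 3 alone called 1749 higher and 1859 lower there, and 1055 and 1071 in tolerant cells against 6 h. For the other settings no share of all genes is given here, so their counts are not read as results about the set. At an adjusted p under 0.01 the counts were 0, 5 and 2. Leaving out 1 array at a time gave 0 to 1, 6 to 10 and 3 to 7. The other 9 alternatives to the filter, probe-set rule, scaling, floor, trend and samples fitted stayed within 1.5 times of the reported counts. Ifnar2 against 6 h was the single change that turned its sign, to log2 -0.15 (adjusted p = 0.68) with the mean of its probe sets. The calls on Ifngr1 and Oasl1 in both comparisons, and on Rsad2, Jak2 and Ifi27 against unstimulated cells, held in all 22 alternatives. The replicate block ended none of the 16 calls. Arrays carry no depth, and the crowding of values near the floor limits what can be said of the 17 genes below the minimum.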

Other observations

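Single-array values of genes that entered no test are given here. Most lie around or below the level minimum, and no order or result is read from them. Gbp2 read 4.20 on 6 h LPS replicate 3 and 3.05 to 3.35 on the other 8 arrays, and its dimmer probe set read 3.45 there and 2.46 to 2.60 elsewhere (log2). Dtx3l had its highest value, 3.89, on the same array. Tap1 read 4.99 and 4.74 on replicate 1 of unstimulated and tolerant cells but 3.86 on replicate 1 at 6 h.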
